A study of Rattus norvegicus with 40 samples.

Results

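Polysome RNA of fetal rat liver was compared between rapamycin and its solvent on 8 of the 40 arrays of the study. The arrays were chosen by their titles, which name fetal liver polysomes: 4 came from fetuses injected with rapamycin and 4 from fetuses injected with dimethyl sulfoxide (DMSO). All were Sprague Dawley rats, injected on day 19 of gestation with 50 µg of rapamycin per fetus or with DMSO alone, and their livers were taken 24 h later, on day 20. Another 8 arrays held total RNA of fetal liver, with the same replicate numbers. Adult livers gave the rest: rats fasted for 48 h, given rapamycin, 250 µg for each 100 g of weight, or DMSO and refed for 3 h, and rats injected in the same way 1 h before partial hepatectomy, the removal of most of the liver, and examined 24 h after it. Each adult group held 3 arrays per fraction. Arrays of a group are labelled as biological replicates. The polysome preparations are described as pooled, without saying what was pooled or which fetuses shared a dam. Each replicate number of a treatment was taken to be 1 liver in both fractions, an assumption that the labels do not state, and is called a liver here.

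Rapamycin inhibits mTOR complex 1, a kinase complex that couples nutrients and growth signals to translation through the 4E-BP proteins and the S6 kinases. Polysomes are mRNAs that carry several ribosomes, so that polysome RNA holds the mRNAs being translated, and mRNAs that begin with a 5′ terminal oligopyrimidine tract (TOP mRNAs), such as those of ribosomal proteins, are the best known class whose polysome loading depends on mTOR. Fetal liver near term holds growing hepatocytes together with blood cells in formation. Levels below are log2 of the array intensity of a transcript cluster, the array's set of probes for 1 transcript. The intensities had been scaled across arrays, so that a level is a share within the fraction and says nothing of how much mRNA the polysomes held in all. Differences are rapamycin minus DMSO on the log2 scale, with the standard error (SE) of a limma fit over the 4 pairs, and each p-value is adjusted (Benjamini-Hochberg) over 10860 transcript clusters.

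The arrays carried the marks of fetal liver. Afp, the fetal plasma protein alpha-fetoprotein, had log2 levels of 13.9 to 14.2 in the 8 fetal polysome arrays, against 7.43 to 8.36 in the 12 adult polysome arrays. Igf2, a fetal growth factor, lay at 13.17 to 13.47 in fetal arrays and at 6.72 to 7.20 in adult arrays, and Alas2, the erythroid enzyme of haem synthesis, at 12.96 to 13.69 in fetal arrays and at 9.05 to 10.71 in adult arrays. Array medians of the 8 lay between 7.15 and 7.32.

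The replicate number separated the fetal arrays more than the treatment did. The first principal component held 58.7% of the variance, with scores of 17.83 and 25.49 for rapamycin 1 and 2 and 18.94 and 25.38 for DMSO 1 and 2, against −25.04 and −21.10 for rapamycin 3 and 4 and −18.96 and −22.55 for DMSO 3 and 4. Cyp3a2, a drug-metabolising enzyme that is high in mature hepatocytes, had 7.12, 7.13, 11.37 and 10.62 in rapamycin livers 1 to 4, against 6.03, 5.93, 10.60 and 10.71 in DMSO livers 1 to 4. Hbg1, an embryonic-type globin gene, ran the other way, with 10.21, 11.47, 8.17 and 8.28 in rapamycin livers against 10.58, 11.69, 8.60 and 7.87 in DMSO livers. Numbers 1 and 2 thus had lower Cyp3a2 and higher Hbg1 than numbers 3 and 4 in both treatments. Deviations from the group mean correlated at 0.596 to 0.753 between rapamycin and DMSO arrays of equal number, and 8 of 8 arrays correlated best with their own number. Unequal numbers within 1 and 2, or within 3 and 4, correlated at 0.336 to 0.592, and all others negatively. The pairing had been set from this resemblance, so these values describe it and do not test it. The second component held 13.9% of the variance and set rapamycin 2 apart, with a score of −24.57 against −2.67 to 8.999 for the other rapamycin arrays and −3.51 to 13.56 for the DMSO arrays.

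**Figure D1:**
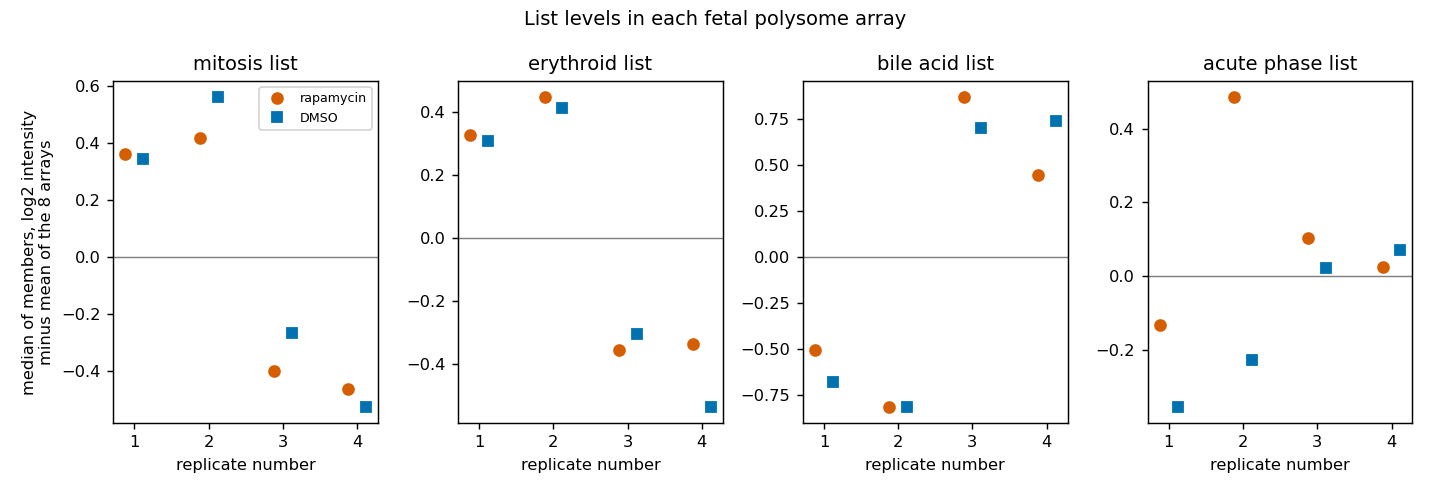
Median level of 4 gene lists in each fetal polysome array, as log2 intensity minus the mean of the 8 arrays, against the replicate number (circles, rapamycin; squares, DMSO). Mitosis and erythroid genes were high and bile acid genes low in numbers 1 and 2 of both treatments, and the acute phase list was highest in rapamycin 2, at 0.49.

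The comparison of the treatments asked which mRNAs rapamycin changes on the polysomes of fetal liver. With the arrays paired by number, 0 of 10860 transcript clusters passed an adjusted p of 0.05 in limma (percent called 0), and 1551 had an unadjusted p under 0.05 (14.3%). Of these, 445 were higher with rapamycin (4.1%) and 1106 lower (10.2%). The split followed the scaling: 28.7% of the 1551 were higher as deposited, 50.1% of 1463 after centring each array on its median and 49.5% of 1487 after cyclic loess scaling. The median difference over all clusters was −0.03, and 9 clusters differed by over 1. An adjusted p under 0.1 was reached by 23 clusters, 8 higher and 15 lower. Without number 2 in both treatments, 4 clusters passed 0.05, and 8 passed with robust moderation and 20 with the variance taken over all 20 polysome arrays. In bulk liver, fewer cells of a type and less RNA per cell cannot be told apart.

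Foxq1, a forkhead transcription factor, had the smallest adjusted p. Its levels were 7.97, 8.08, 8.97 and 8.55 in rapamycin livers 1 to 4, against 7.21, 6.995, 7.65 and 7.37 in DMSO livers 1 to 4. The DMSO levels lay near the array medians, which ran from 7.15 to 7.32. Each rapamycin array lay above each DMSO array, and the difference was 1.09 ± 0.107 (SE, n = 4 pairs; limma, adjusted p = 0.0521), or 2.12-fold. Foxq1 passed without number 2 (adjusted p = 0.0212) and with robust moderation (0.0173), and its adjusted p ran from 0.0173 to 0.999 over the alternatives, highest without the replicate block. In total RNA of the same replicate numbers the difference was 0.80 ± 0.206 (adjusted p = 0.722).

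Acot1, a cytosolic thioesterase that releases fatty acids from coenzyme A, had 7.03, 8.39, 8.60 and 6.93 in rapamycin livers, against 6.57, 7.33, 7.25 and 5.88 in DMSO livers. It was higher in 4 of 4 pairs, although the groups overlapped, by 0.98 ± 0.138 (adjusted p = 0.0925). In livers 1 and 4 of both treatments it lay below the lowest array median of 7.15. Of all clusters, 7.75% were higher in 4 of 4 pairs and 15.8% lower in 4 of 4 pairs. Pxmp2, a channel protein of the peroxisomal membrane, was higher in 4 of 4 pairs by 0.54 ± 0.0772, with 11.03, 10.61, 11.66 and 11.71 in rapamycin livers against 10.60, 10.21, 11.06 and 11.002 in DMSO livers. Tmem116 (0.56) and Chmp4c, of the membrane-cutting ESCRT-III machinery (0.53), had the next smallest p among higher genes, both with an adjusted p of 0.0925. The Chmp4c arrays did not overlap, with 9.18 to 9.57 in rapamycin livers and 8.70 to 9.08 in DMSO livers.

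The 5 lower genes with the smallest p each had an adjusted p of 0.0925 and were lower in 4 of 4 pairs, with overlapping groups. Isyna1, which makes inositol phosphate from glucose phosphate, had 10.30, 10.88, 10.03 and 9.84 in rapamycin livers, against 10.89, 11.55, 10.49 and 10.56 in DMSO livers, a difference of −0.61 ± 0.0752. Ppbp, the platelet basic protein, differed by −0.75 ± 0.0956, Il7r, the interleukin-7 receptor of lymphoid precursors, by −0.72 ± 0.0945, and Lynx1 by −0.72 ± 0.0952. Aspa, which splits N-acetylaspartate, differed by −0.77 ± 0.105.

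**Figure D2:**
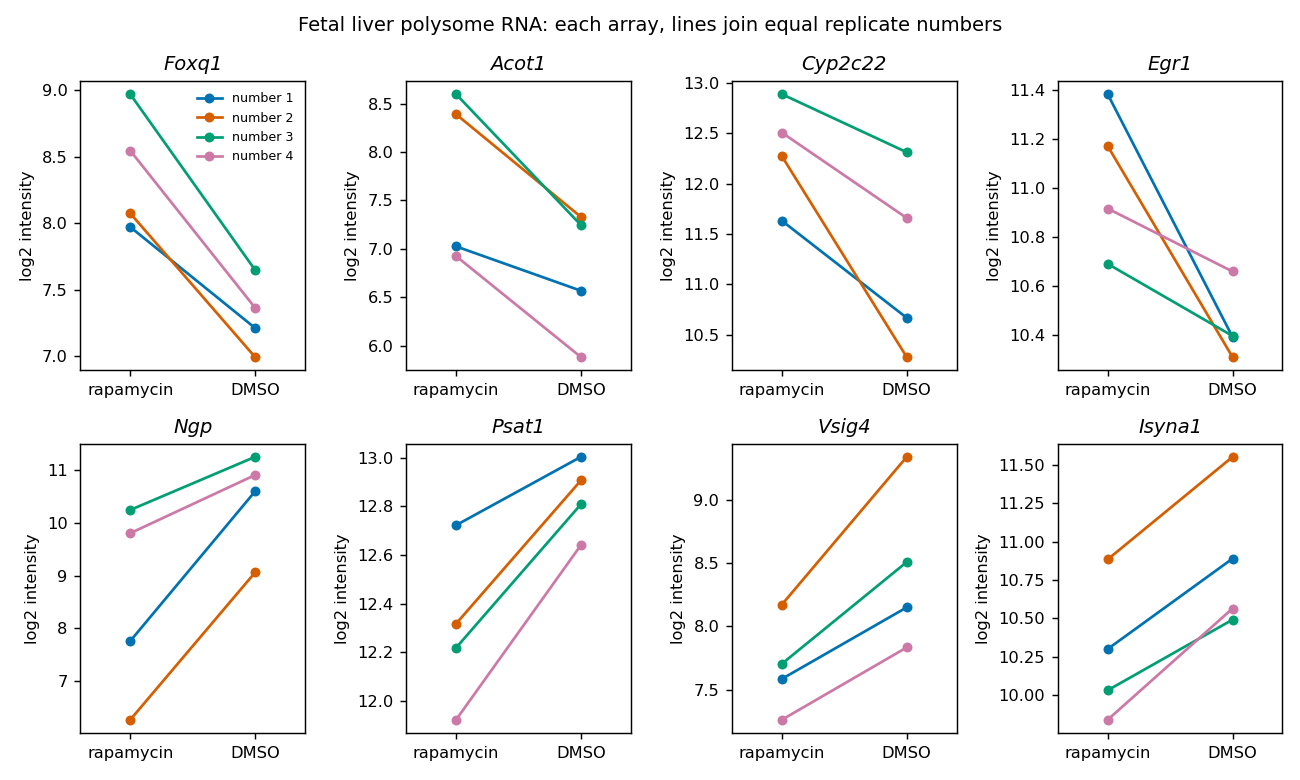
Log2 intensity of 8 genes in each fetal polysome array, rapamycin on the left and DMSO on the right of each panel, with lines between arrays of equal replicate number (Psat1: the transcript cluster that stands for it in the ATF4 list). The top row shows genes higher with rapamycin in 4 of 4 pairs and the bottom row genes lower in 4 of 4 pairs, on axes that do not start at 0.

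Ngp, a granule protein of neutrophil precursors, had the largest difference among the genes named here, at −1.93 ± 0.31 (adjusted p = 0.0935). Its levels were 7.76, 6.27, 10.24 and 9.80 in rapamycin livers, against 10.59, 9.06, 11.25 and 10.90 in DMSO livers. Each rapamycin liver was below the DMSO liver of its number, and numbers 3 and 4 were above numbers 1 and 2 within both treatments. Cyp2c22, a hepatic cytochrome P450, had 11.63, 12.27, 12.89 and 12.51 in rapamycin livers against 10.67, 10.28, 12.31 and 11.66 in DMSO livers, a difference of 1.10 ± 0.193 (adjusted p = 0.119). Cyp2a3, of the same superfamily, had 5.98, 6.04, 7.07 and 7.18 in rapamycin livers against 6.69, 6.38, 8.33 and 8.34 in DMSO livers, a difference of −0.87 ± 0.151 (adjusted p = 0.119). It lay below the lowest array median of 7.15 in rapamycin livers 1 to 3 and DMSO livers 1 and 2. Related P450 genes share sequence, and how far their probes cross-hybridise was not tested. Cdo1, which oxidises cysteine, differed by −0.96 ± 0.17 and Cited1, a transcriptional coregulator, by −1.07 ± 0.236, both lower in 4 of 4 pairs.

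Of the drug's own pathway, the genes on a fixed list of names differed by between −0.21 and 0.11. The longer list of 31 mTOR pathway genes, described below, ran from −0.57 to 0.18. Mtor differed by 0.11, Rps6kb1, an S6 kinase, by −0.09, Eif4ebp1, the translation repressor 4E-BP1, by −0.21, Eif4e, the cap-binding protein it holds, by 0.02 and Rps6, the ribosomal substrate of the S6 kinases, by −0.02 (adjusted p = 0.357 to 0.919). Alb differed by 0.02, Afp by 0.004, Igf2 by 0.04 and Hbb by 0.04. Of the cell cycle genes, Ccnd1, cyclin D1, differed by 0.03 and Cdkn1a, the inhibitor p21, by 0.27. Igfbp1, a hepatic binding protein of insulin-like growth factors, had 12.88, 13.92, 13.00 and 13.33 in rapamycin livers and 12.19, 12.53, 13.05 and 13.51 in DMSO livers, so that pairs 1 and 2 were higher with rapamycin and pairs 3 and 4 lower. Its difference was 0.46 ± 0.219 (adjusted p = 0.379). Of the other genes named by the same rule, Psat1 differed by −0.54 and Myc by 0.39. Mocos, Nr0b2 and Socs2 differed by −0.20, −0.09 and 0.24.

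Gene lists were described by counts at an unadjusted p under 0.05, to be read against 4.1% higher and 10.2% lower of all clusters, and by medians, against −0.03 for all clusters. Counts above and below 0 are to be read against 41.5% of all clusters above 0 as deposited. This share was 52.3% after median centring and 43.3% without number 2 or without number 3. After median centring, 733 of all 10860 clusters were higher and 730 lower at an unadjusted p under 0.05. No member of a list passed the adjusted threshold. The list counts depended on the pairing: without the replicate block 295 of all clusters had an unadjusted p under 0.05, and ATF4 targets, for example, held 3 lower genes in place of 15.

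Ribosomal proteins, the main class of TOP mRNAs, had a median near 0 as deposited. Of 83 listed genes, 68 were tested, with a median of −0.004. As deposited 33 lay above 0 and 35 below, but 45 above and 23 below after median centring. At an unadjusted p under 0.05, 5 were higher and 2 lower, and 7 higher and 0 lower after median centring. By pair the median was 0.03, 0.11, −0.17 and 0.04 for numbers 1 to 4. Number 3 weighed on these counts: without it 53 lay above 0 and 15 below, with a median of 0.07, 10 higher and 0 lower. Without number 1, 2 or 4 there were 2, 3 and 4 higher and 2, 2 and 0 lower. Rps2, of the small subunit, had 13.71, 13.61, 13.49 and 13.39 in rapamycin livers against 13.54, 13.49, 13.29 and 13.29 in DMSO livers, a difference of 0.15 ± 0.0471 (adjusted p = 0.251). Rpl23, of the large subunit, differed by 0.35 and Rpl31 by 0.17, while Rplp2, of the stalk, differed by −0.15 and Rpl18 by −0.16. Rps25 had the largest value, 0.58, with 12.17, 11.96, 9.58 and 9.65 in rapamycin livers against 12.17, 11.48, 8.73 and 8.64 in DMSO livers, but a further Rps25 cluster differed by −0.03. Ribosomal protein genes have many near-identical copies in the genome, and the 9 clusters of Rps2 ranged from −0.16 to 0.18. The 6 clusters of Rpl31 ranged from −0.13 to 0.17, so that the value given above is the highest.

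The promoters of 5 of these genes and of Psat1, which encodes an enzyme of serine synthesis, are shown because the tract that names TOP mRNAs lies at the transcription start. Each line gives 20 bases before and 10 bases from the start used in the RefSeq table (GRCr8), 5′ to 3′ on the gene's strand, with the longest run of C and T in capitals.
Rps2, chr10:14251828-14251857, + strand: gCCTCCCTCTTCTTTTTCTTCgggaaaaca
Rpl23, chr10:83272175-83272204, − strand: cttgtactaaCTTCCTTTCTgactctttcc
Rpl31, chr9:49143091-49143120, + strand: ccatcccacaatccctcgcgCCTTTCCTTT
Rplp2, chr1:205975901-205975930, + strand: aTCTTCCTTTCgccgccggacgccgccgag
Rps6, chr5:106420531-106420560, − strand: ttcgtgacgCCTCCTaggcggtcggctgtg
Psat1, chr1:222645399-222645428, − strand: ttgctcctgccaCTTTCCCTTCTgtcgcct
A run of 8 or more C and T on the gene's strand was found in this window in 42 of 58 ribosomal protein genes with an entry (72.4%), in 9 of 18 other TOP genes (50%) and in 4020 of 33469 promoters of the table (12%). The runs of Rps2, Rpl31 and Psat1 cover the start used, that of Rpl23 ends just before it, and those of Rplp2 and Rps6 end further upstream. Rps2, with a run of 20 bases, and Rpl23 and Rpl31, with runs of 10 in the window, had positive differences above. The run of Rpl31 reaches the end of the window. Other clusters of Rps2 and Rpl31 had negative differences. Rplp2, with a run of 10, had a negative difference. Of promoters not shown, that of Rpl34 had a run of 20 and that of Rps15a a run of 10. The 2 clusters of Rpl34 differed by −0.02 and −0.13, and the 3 of Rps15a by 0.03 to 0.38. Shorter runs, of 3 and 7, were found for Rps12 and Rpl18. The 4 clusters of Rps12 differed by −0.05 to 0.22, and Rpl18 had a negative difference above.

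The other genes of translation gave medians between −0.10 and 0.05. Of 22 tested other TOP mRNAs, with a median of 0.05, 2 were higher and 1 lower (without numbers 1 to 4 in turn, 1, 0, 3 and 1 higher and 1, 0, 1 and 1 lower): Eif4b, an initiation factor, differed by 0.15, Eif4a2, a helicase, by 0.17 and Naca, of the nascent chain complex, by −0.23. Eef2 and Eef1a1, the elongation factors, differed by 0.05 and −0.005. Among 69 mitochondrial ribosomal proteins, with a median of −0.06, 0 were higher and 13 lower at an unadjusted p under 0.05, among them Mrps27 (−0.42) and Mrpl49 (−0.35). Without numbers 1 to 4 in turn, 11, 8, 9 and 10 of these were lower. Among 27 initiation factors, with a median of −0.07, 4 were lower, led by Eif2s1, the alpha subunit of eIF2, at −0.42 ± 0.0941 (adjusted p = 0.164). The initiation factor count was 5, 6, 2 and 2 without numbers 1 to 4, and 2 after median centring. Among 19 aminoacyl-tRNA synthetases, with a median of −0.10, 5 were lower and 18 lay below 0. For the synthetases, median centring left 1 lower and 14 below 0, and without numbers 1 to 4 in turn 5, 6, 1 and 1 were lower. Their median was 0.08 in pair 2, against −0.06, −0.24 and −0.22 in pairs 1, 3 and 4.

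**Figure D3:**
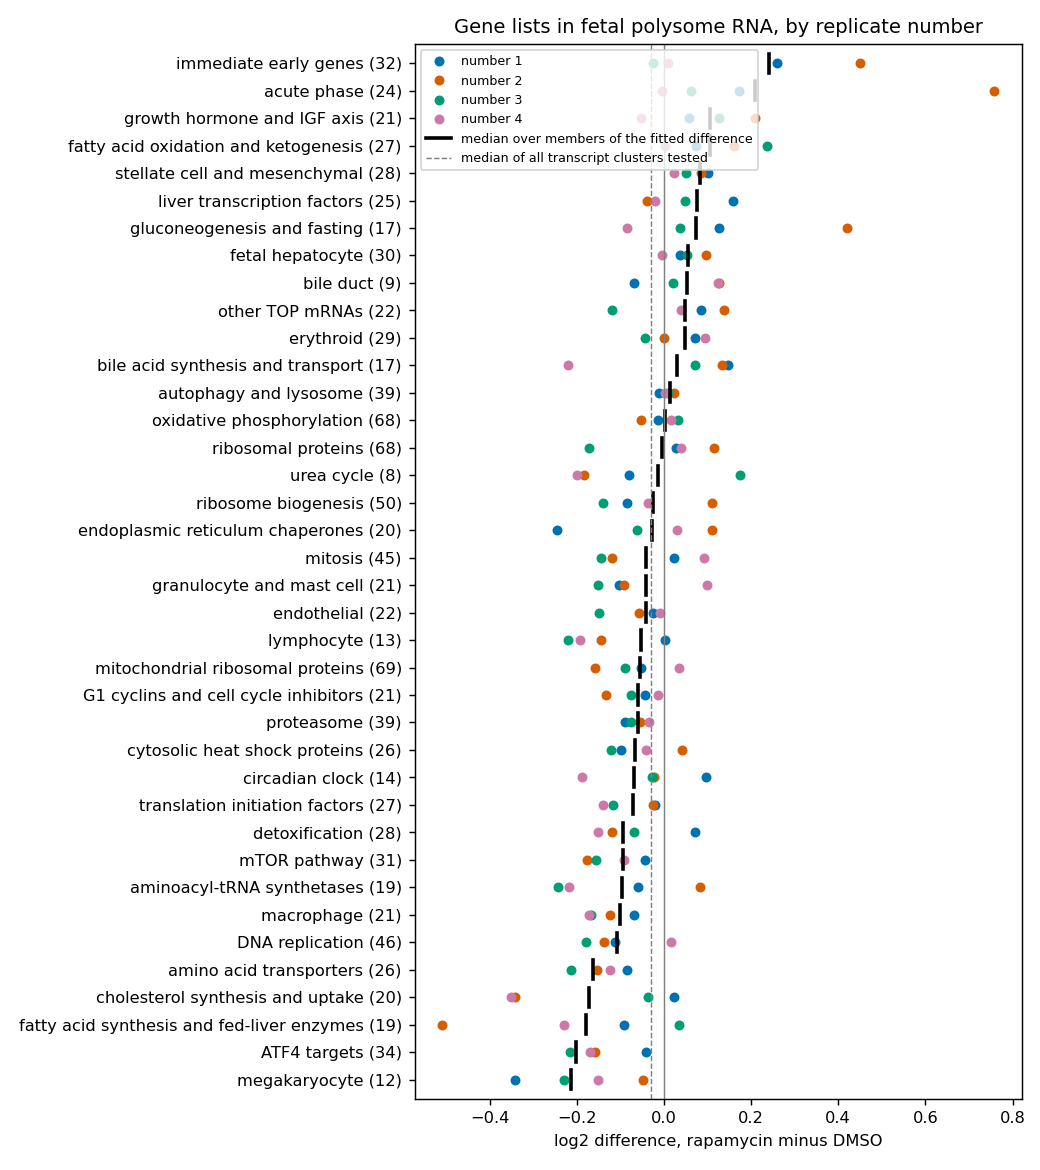
Median log2 difference, rapamycin minus DMSO, of the tested members of each of 38 gene lists (number in brackets) in each pair of equal replicate number (points), with the median of the fitted differences (bar) and the median of all transcript clusters (dashed line, −0.03). For the acute phase list number 2 lay above the others, at 0.76.

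Genes of amino acid synthesis and uptake leaned to lower values. Of 34 tested targets of ATF4, the transcription factor of the amino acid response, 15 were lower and 2 higher at an unadjusted p under 0.05, with a median of −0.20. Median centring left 10 lower and 3 higher, with a median of −0.17. Without numbers 1 to 4 in turn, 15, 9, 11 and 11 were lower and 1, 0, 4 and 1 higher. Psat1 had 12.72, 12.32, 12.22 and 11.92 in rapamycin livers, against 13.00, 12.91, 12.81 and 12.64 in DMSO livers, a difference of −0.54 ± 0.0756 (adjusted p = 0.0925), and its other cluster differed by −0.52. Phgdh and Psph, the other enzymes of serine synthesis, differed by −0.25 and −0.35, and Aldh18a1, of proline synthesis, by −0.38. Aldh1l2, of mitochondrial folate metabolism, had 9.57, 9.28, 10.12 and 10.11 in rapamycin livers against 10.20, 10.14, 10.38 and 10.37 in DMSO livers, a difference of −0.50 ± 0.113 (adjusted p = 0.164). Asns, asparagine synthetase, differed by −0.12 and Trib3, a pseudokinase, by −0.37, and neither had the same sign in all pairs. The 2 higher members were Atf3 (0.65) and Ppp1r15a (0.22), which also answer to stress.

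Of 26 amino acid transporters, with a median of −0.16, 7 were lower and 0 higher. Slc7a5, the light chain of a transporter of large neutral amino acids, differed by −0.21, Slc7a6 by −0.46, Slc7a7 by −0.37 and the lysosomal Slc38a9 by −0.36. Of 31 mTOR pathway genes, with a median of −0.10, 6 were lower and 0 higher. Sesn3, a sestrin that restrains mTOR complex 1, had 8.53, 8.05, 9.23 and 9.17 in rapamycin livers against 9.25, 9.08, 9.51 and 9.41 in DMSO livers, a difference of −0.57 ± 0.135 (adjusted p = 0.18). Lamtor3, a subunit of the lysosomal scaffold of the pathway, differed by −0.40, Rragd, a Rag GTPase, by −0.33 and Flcn, folliculin, by −0.27. In the urea cycle, Ass1 and Asl differed by −0.31 and −0.44, and Cps1, its first enzyme, by −0.02.

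Genes of fatty acid use and fatty acid synthesis had medians of opposite sign. Of 27 fatty acid oxidation genes, with a median of 0.11, 9 were higher and 0 lower at an unadjusted p under 0.05, and 24 lay above 0. The medians by pair were 0.07, 0.16, 0.24 and 0.002, and without number 3 the median was 0.06, with 18 above 0 and 4 higher. Ehhadh, an enzyme of peroxisomal oxidation, had 11.72, 12.19, 13.26 and 13.05 in rapamycin livers against 11.12, 11.32, 12.73 and 12.77 in DMSO livers, a difference of 0.57 ± 0.0908 (adjusted p = 0.0925). Acot2 differed by 0.41, Decr1 by 0.37, Acat1 by 0.27 and Cpt1a, which admits fatty acids to mitochondria, by 0.25. Of 19 fatty acid synthesis genes, with a median of −0.18, 7 were lower and 0 higher. Pair 3 went the other way, with medians of −0.09, −0.51, 0.04 and −0.23 in pairs 1 to 4. Without numbers 1 to 4 in turn, 6, 4, 11 and 2 were lower, and without number 2 the median was −0.09. Scd, a desaturase, had 8.58, 9.76, 11.63 and 10.04 in rapamycin livers against 9.45, 10.84, 11.16 and 11.39 in DMSO livers, so that pair 3 went against the other pairs. Fads1 and Fads2, also desaturases, differed by −0.50 and −0.52, Me1 by −0.45 and Fasn, fatty acid synthase, by −0.37. Of 20 cholesterol genes, with a median of −0.17, 6 were lower and 0 higher, led by Acat2 (−0.57 ± 0.105). Pairs 2 and 4 carried this list, with medians of −0.34 and −0.35 against 0.02 and −0.04 in pairs 1 and 3, and without numbers 1 to 4 in turn 10, 4, 8 and 1 were lower.

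Immediate early genes, which answer within minutes to growth signals and stress, and acute phase genes, which encode plasma proteins of inflammation, had their highest medians in pair 2. Of 32 immediate early genes, with a median of 0.24, 9 were higher and 0 lower at an unadjusted p under 0.05. The medians by pair were 0.26, 0.45, −0.02 and 0.01, and without number 2 the median was 0.06, with 6 higher and 1 lower. Without number 1, 5 were higher and 1 lower. Egr1, a zinc finger transcription factor, had 11.38, 11.17, 10.69 and 10.92 in rapamycin livers against 10.39, 10.31, 10.40 and 10.66 in DMSO livers. The groups did not overlap and the difference was 0.60 ± 0.13 (adjusted p = 0.16). Dusp6, a phosphatase that shuts off ERK, differed by 0.52 and Myc by 0.39, also without overlap between the groups. Egr1 and Dusp6 differed most in pair 1, by 0.99 and 0.98, and by 0.86 and 0.56 in pair 2. Arrays that did not overlap were found for 0.451% of all clusters in the higher direction and 1.36% in the lower. Fos differed by 0.18.

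Of 24 acute phase genes, 24 lay above 0 and 8 were higher at an unadjusted p under 0.05, with a median of 0.21. The medians by pair were 0.17, 0.76, 0.06 and −0.01, and without number 2 the median was 0.07, with 19 above 0, 6 higher and 1 lower. C9, a terminal complement component, had 10.51, 12.84, 10.97 and 10.37 in rapamycin livers against 9.79, 11.35, 10.51 and 10.33 in DMSO livers. Cp, ceruloplasmin, had 12.21, 13.24, 12.67 and 12.73 in rapamycin livers against 11.71, 11.73, 12.57 and 12.51 in DMSO livers. Mmp9, a protease of neutrophils, was also highest in rapamycin 2, with 8.61, 10.39, 9.25 and 9.07 in rapamycin livers against 8.34, 8.17, 8.79 and 8.31 in DMSO livers. The whole acute phase list had a median of −0.03 in total RNA.

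Mitosis genes had a median near that of all clusters, while most DNA replication genes lay below 0. Of 45 mitosis genes, with a median of −0.04, 0 were higher and 4 lower at an unadjusted p under 0.05, and of 46 DNA replication genes, with a median of −0.11, 0 were higher and 8 lower. Of the replication genes 42 lay below 0, 38 after median centring, and 13 were lower in 4 of 4 pairs. Without numbers 1 to 4 in turn, 5, 9, 2 and 8 replication genes and 1, 2, 2 and 5 mitosis genes were lower. Birc5, the mitotic regulator survivin, had 9.56, 9.36, 8.98 and 9.18 in rapamycin livers against 9.53, 9.44, 9.05 and 8.89 in DMSO livers, which overlapped. Ccnb1, a B-type cyclin, differed by −0.10, Cdk1, its kinase, by −0.03 and Aurka by −0.11. Gins1 and Gins4, subunits of the replicative helicase, differed by −0.37 and −0.35, both lower in 4 of 4 pairs. Tk1, thymidine kinase, differed by −0.25, Pcna, the sliding clamp, by −0.19 and Mcm2, of the helicase core, by −0.09.

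Markers of other liver cells were also compared. Of 12 tested megakaryocyte and platelet genes, out of 20 listed, 6 were lower and 0 higher at an unadjusted p under 0.05, with a median of −0.21. The list level, as the median of its members minus their mean over the 8 arrays, ran from −0.40 to 0.05 in rapamycin livers and from −0.03 to 0.28 in DMSO livers. Ppbp had 8.15, 9.04, 9.18 and 9.28 in rapamycin livers against 8.78 to 10.07 in DMSO livers, lower in 4 of 4 pairs, while Pf4, a further platelet chemokine, differed by −0.15. Of 21 macrophage genes, with a median of −0.10, 6 were lower and 0 higher, and the list level ran from −0.07 to 0.10 in rapamycin livers and from −0.07 to 0.22 in DMSO livers. Vsig4, a complement receptor of tissue macrophages, had 7.59, 8.17, 7.70 and 7.26 in rapamycin livers against 8.15, 9.34, 8.51 and 7.83 in DMSO livers, a difference of −0.78 ± 0.116 (adjusted p = 0.0925). Cd5l and Folr2, also of resident macrophages, differed by −0.48 and −0.48, Cd163 by −0.28 and Adgre1 by 0.05. Of the 21 macrophage genes 8 lay above 0, the highest at 0.17.

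Of 21 granulocyte and mast cell genes, 2 were higher and 4 lower, with a median of −0.04. Besides Ngp these were Ctsg, cathepsin G (−0.61 ± 0.112), Camp, cathelicidin (−0.55 ± 0.12), and Fcnb (−0.24), with Mmp9 and Kit (0.28) in the other direction. Mpo, the peroxidase of the same lineage, differed by −0.07. Of 13 lymphocyte genes, with a median of −0.05, 4 were lower and 0 higher. Among these was Il7r, with 6.52, 6.97, 6.05 and 5.29 in rapamycin livers against 7.13, 7.64, 6.70 and 6.23 in DMSO livers. Its rapamycin levels all lay below the lowest array median of 7.15, at the low end of the intensities tested. With the filter at the 50th percentile 5 lymphocyte genes remained, of which 1 was lower. Of 29 erythroid genes, with a median of 0.05, 3 were higher and 1 lower. Hbe1, an embryonic globin gene, had 13.59, 13.58, 11.64 and 12.07 in rapamycin livers against 12.99, 13.21, 11.19 and 10.999 in DMSO livers, a difference of 0.62 ± 0.107 (adjusted p = 0.119), while Alas2 differed by 0.12. The erythroid list level ran from −0.36 to 0.45 in rapamycin livers and from −0.54 to 0.41 in DMSO livers. Of 22 endothelial genes, with a median of −0.04, 1 was higher and 3 lower. Lyve1, a receptor of sinusoidal endothelium, had 11.02, 11.09, 11.36 and 11.22 in rapamycin livers against 11.37, 11.51, 11.88 and 11.60 in DMSO livers, with no overlap (−0.41 ± 0.0651, adjusted p = 0.0925). Without numbers 1 to 4 in turn, 2, 2, 1 and 2 granulocyte and 0, 0, 1 and 0 endothelial genes were higher, and 0, 2, 0 and 1 erythroid genes were lower. Median centring gave 7 higher and 0 lower erythroid genes. The part of the numbers of these cells in the differences above was not tested.

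The remaining lists had medians between −0.09 (detoxification) and 0.11 (growth hormone and insulin-like growth factor axis). In the growth hormone list, Igfbp5 and Igfbp3, binding proteins of these growth factors, differed by 0.54 and 0.29. Among detoxification genes, Cyp2b2 (0.59) and Ugt2b1 (0.47) had positive and Gstt1 (−0.43) negative differences. Proteasome (−0.06), oxidative phosphorylation (0.003), ribosome biogenesis (−0.02), heat shock (−0.07), endoplasmic reticulum chaperone (−0.03), autophagy and lysosome (0.01), clock (−0.07) and gluconeogenesis (0.07) lists lay in between. So did the bile acid (0.03), fetal hepatocyte (0.05), liver transcription factor (0.07), stellate cell (0.08), bile duct (0.05), G1 cyclin (−0.06) and urea cycle (−0.01) lists. Some of these held members in both directions at an unadjusted p under 0.05. Of 28 stellate cell genes 4 were higher and 5 lower, and 0 higher and 3 lower without number 3. Of 8 urea cycle genes 1 was higher and 3 lower, and of 30 fetal hepatocyte genes 5 were higher and 1 lower.

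Total RNA of the same replicate numbers was used to ask whether the response on polysomes differed from that of the whole mRNA pool. For the difference of the rapamycin effects, polysome minus total, 0 of 10860 clusters passed in limma (percent called 0), and 409 had an unadjusted p under 0.05 (3.77%). In total RNA alone, 0 clusters passed in limma as well, and 666 had an unadjusted p under 0.05 (6.13%). Hbe1 had the smallest p in this comparison, differing by 0.62 in polysome RNA and by −0.02 in total RNA (difference 0.64 ± 0.114, adjusted p = 0.999). Aspa differed by −0.77 in polysome RNA and by −0.13 in total RNA, and Doc2a by −0.69 in polysome RNA and by 0.03 in total RNA. Plac8 differed by 0.09 in polysome RNA and by −0.62 in total RNA, and Cd24, a surface protein of precursors, by 0.40 in polysome RNA and by −0.28 in total RNA. Psat1 differed by −0.54 in polysome RNA and by −0.47 in total RNA, and Vsig4 by −0.78 in polysome RNA and by −0.75 in total RNA. List medians in total RNA were −0.12 for ATF4 targets, −0.16 for aminoacyl-tRNA synthetases and −0.08 for mitochondrial ribosomal proteins. They were −0.14 for fatty acid synthesis, −0.15 for cholesterol and 0.07 for fatty acid oxidation genes. For amino acid transporters, immediate early genes and acute phase genes they were −0.03, 0.04 and −0.03. The deviations of polysome and total RNA of equal number from their group means correlated less in rapamycin livers (0.417, 0.406, 0.523 and 0.332 for numbers 1 to 4) than in DMSO livers (0.612, 0.695, 0.677 and 0.690), over clusters that are not independent.

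The same drug after partial hepatectomy, when adult hepatocytes divide, was set beside the fetal response. The time point label of the 3 hepatectomy DMSO polysome arrays is that of refeeding, while their titles and injection labels name hepatectomy. They were grouped by title, and each fetal minus hepatectomy value rests on them. The rapamycin effect on polysome RNA differed between fetal livers and hepatectomy livers for 73 clusters at an adjusted p under 0.05 in limma (0.672%), 44 higher in the fetal contrast (0.405%) and 29 lower (0.267%). The absolute effect was larger after hepatectomy for 60 of the 73 and larger in fetal liver for 13. Mitosis genes made up 17 of the 44, of 45 tested. Birc5 differed by 0.04 with rapamycin in fetal livers and by −1.78 in hepatectomy livers, a difference of 1.82 ± 0.229 (adjusted p = 0.0101). Arhgef39 (1.66 ± 0.231) and Spag5, of the mitotic spindle (1.33 ± 0.189), followed with an adjusted p of 0.0108. The median difference of the mitosis list, fetal minus hepatectomy, was 1.33, against −0.005 for all clusters.

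Genes with a lower value in the fetal contrast included Kmo, an enzyme of tryptophan breakdown, with −0.12 in fetal livers and 1.30 in hepatectomy livers (difference −1.42 ± 0.205, adjusted p = 0.0108). Lynx1 was −0.72 in fetal livers and 0.55 in hepatectomy livers (−1.27 ± 0.185, adjusted p = 0.0108), and Ppbp was −0.75 in fetal livers and 0.17 in hepatectomy livers (−0.92 ± 0.144, adjusted p = 0.0182). Ngp, Ctsg, Cdo1 and Lyve1 were also among the 29, with differences of −1.82, −0.74, −1.06 and −0.67. For ribosomal proteins the median difference was 0.38, from a median of −0.004 in fetal livers and −0.34 in hepatectomy livers, and 0 of 68 passed with the brightest cluster of each gene. Of their further clusters 2 were among the 73. That of Rps12 was 0.11 in fetal livers and −0.95 in hepatectomy livers (1.06 ± 0.216, adjusted p = 0.043), and that of Rps23 was 0.15 in fetal livers and −0.63 in hepatectomy livers (0.78 ± 0.163, adjusted p = 0.0474). The brightest clusters of Rps12 and Rps23 differed by 1.13 and 0.98 (adjusted p = 0.0619 and 0.0859).

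Single arrays set these counts. Without fetal number 1, 2, 3 or 4 in both treatments, 7, 13, 8 and 5 clusters passed, and without hepatectomy DMSO 1, 2 or 3, 388, 8 and 8. Without hepatectomy rapamycin 1, 2 or 3, 8, 249 and 0 passed. The direction held for the 5 genes with the smallest p in each of these, and the median of the mitosis list stayed between 1.08 and 1.70. The count of mitosis genes that passed did not hold. It was 1, 2, 1 and 1 without fetal numbers 1 to 4 in turn. Without hepatectomy DMSO 1, 2 or 3 it was 25, 1 and 1, and without hepatectomy rapamycin 1, 2 or 3 it was 1, 42 and 0. Without the fetal replicate block 1 cluster passed. The models differ in age, dose and surgery at once, and the parts of these in the difference cannot be told apart.

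Against refed adult livers, which grow without division, 3 clusters differed in limma, all with a lower value in the fetal contrast (0.0276%). Mfsd1, a lysosomal transporter, was −0.49 in fetal livers and 0.58 in refed livers (difference −1.07 ± 0.136, adjusted p = 0.0115), though its other cluster was at −0.22 in fetal livers. The second Psat1 cluster was −0.52 in fetal livers and 0.51 in refed livers (−1.03 ± 0.155, adjusted p = 0.0359), and the one used in the ATF4 list was −0.54 in fetal livers and 1.10 in refed livers (−1.65 ± 0.302, adjusted p = 0.0953). Adgrg2, an adhesion receptor, was −0.34 in fetal livers and 0.77 in refed livers (−1.11 ± 0.17, adjusted p = 0.0359). Without fetal number 1, 2, 3 or 4 in both treatments, 6, 0, 1 and 0 clusters passed, without refed DMSO 1, 2 or 3, 0, 2 and 7, and without refed rapamycin 1, 2 or 3, 1, 0 and 3. Without the fetal replicate block 0 passed, and under median centring or loess scaling 1 did. Refeeding began 1 h after the injection and lasted 3 h, while fetal livers were taken 24 h after theirs. Fetal and refed livers thus differ in age, dose, time after injection and feeding at once. The parts of these in the differences cannot be told apart.

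**Figure D4:**
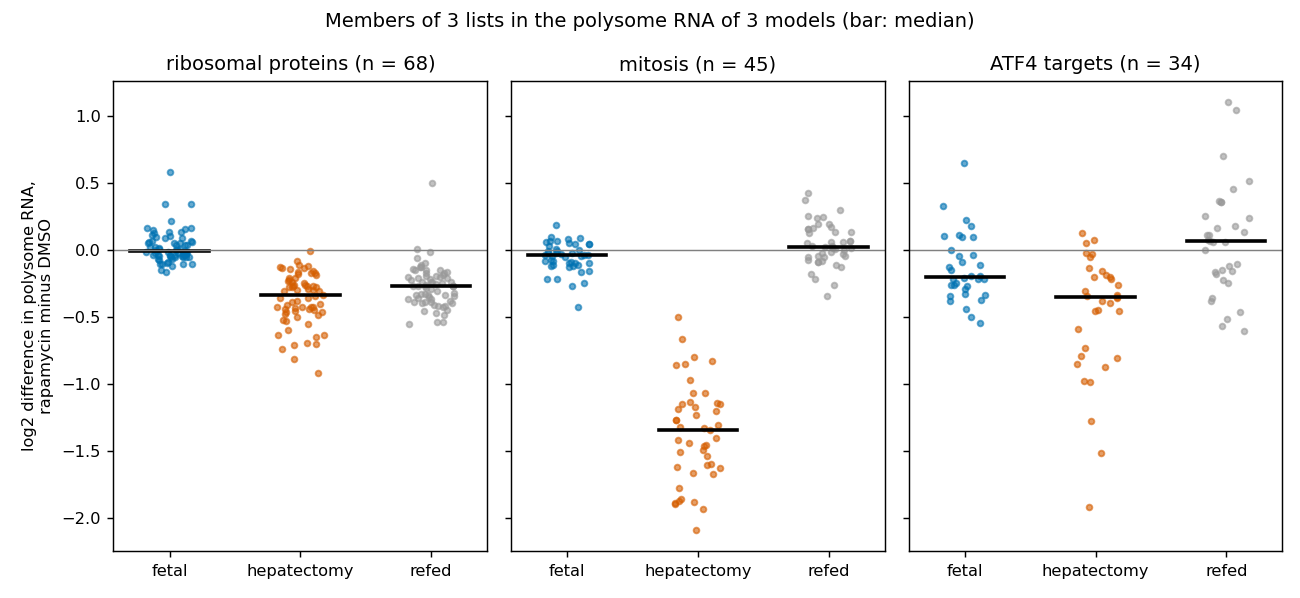
Log2 difference in polysome RNA, rapamycin minus DMSO, of each tested member (points) of the ribosomal protein, mitosis and ATF4 target lists in fetal, hepatectomy and refed livers, with the median as a bar. Medians for mitosis were −0.04, −1.34 and 0.03, for ribosomal proteins −0.004, −0.34 and −0.27, and for ATF4 targets −0.20, −0.35 and 0.06, in fetal, hepatectomy and refed livers.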

How the data were processed

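Linear array intensities, as the authors deposited them, had been normalized with RMA, per the submitters' processing notes. Neither its version nor the arrays normalized together is given in the sources used here. The deposited intensities were log2-transformed with no pseudocount. RMA removes differences in total signal, and the number of arrays limits the precision. Groups and replicate numbers came from the titles.

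Of 28826 clusters, 15209 carried 1 gene symbol, 306 several (never named) and 13311 were unnamed here. Tested were the 10860 with a symbol and a mean log2 intensity over the 16 fetal arrays at or above the 30th percentile (6.68). No 2 of the 8 arrays held the same values (smallest root mean square difference 0.234).

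Fits used limma 3.58.1 (R 4.3.3), moderated with an intensity trend, two-sided, adjusted over all tested clusters, with a threshold of 0.05. The fetal replicate number was a block, set beforehand because arrays of equal number resembled each other (correlations of 0.596 to 0.753). Fetal titles and descriptions number both treatments alike. Adult arrays entered without a block, as group means, although their titles also number both treatments alike. Differences between effects were contrasts in 1 fit: 16 fetal arrays as polysome minus total of a replicate number, taken as 1 liver, or 20 polysome arrays. The procedure was tested on simulated data.

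Members and the 38 gene lists were chosen with earlier results of these data known. Named by rule were the 5 smallest p in each direction and in each difference between effects, and fixed genes. Other genes, among them list members, were named after their values were seen. A gene with several clusters entered a list by its brightest. Alternatives covered the block, filter, scaling, moderation and single arrays. Leaving out adult arrays was added after seeing the data.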

Additional observations from a re-analysis of the deposited data

Results flagged for a closer look

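In the groups of 4 arrays of the named genes, 5 of 288 held an array far from the other arrays of its group. Chance flags about 1 in 20 groups. Aspa was 7.279 in rapamycin 4, with the other rapamycin arrays at 7.988 to 8.009. Emcn was 8.672 in rapamycin 3 (others 8.136 to 8.220), Igfbp5 was 8.04 in rapamycin 1 (8.401 to 8.427) and Pf4 was 10.54 in rapamycin 1 (10.89 to 10.94). Fads2 was 11.89 in DMSO 1, with the other DMSO arrays at 12.81 to 12.97.

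The rapamycin effect on polysome RNA differed between fetal and hepatectomy livers by limma's test of the difference for Birc5 (1.824), Arhgef39 (1.656), Spag5 (1.331), Kmo (−1.417) and Lynx1 (−1.27), each fetal minus hepatectomy on the log2 scale. Between fetal and refed livers it differed for Adgrg2 (−1.108), Mfsd1 (−1.075) and Psat1 (−1.028), each fetal minus refed.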

How the results depend on the processing

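Of the 14 alternatives for rapamycin against DMSO in fetal polysome RNA, 11 also gave 0 calls. Robust moderation gave 8 clusters (2 higher, 6 lower), the fit of all 20 polysome arrays 20 (4 higher, 16 lower), and leaving out 1 replicate 0 to 4. Foxq1, Cyp2a3, Cyp2c22, Lynx1 and Ppbp were called in 2 of these. Without the block 295 had an unadjusted p under 0.05. For fetal minus hepatectomy the count was 1 with no replicate block, 18 with no filter, and 0 to 388 without 1 array or fetal number. For fetal minus refed it was 0 with no replicate block, 1 under cyclic loess scaling, 1 under median centring, and 0 to 7 without 1 array or fetal number. Polysome minus total stayed at 0 calls in its 12 alternatives. Genes near 0 changed sign. Leaving out 1 replicate in turn, Igf2 ran from −0.023 to 0.068, Ccnd1 from −0.078 to 0.17, Afp from −0.029 to 0.029, Alb from −0.00684 to 0.041, Eif4e from −0.064 to 0.084, Rps6 from −0.045 to 0.012 and Nr0b2 from −0.23 to 0.089. Rps6 was 0.017 under median centring. The causes were not tested.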
